A study of Mus musculus with 4 samples.

Results

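The p53 pathway genes described here are 32 genes chosen by symbol: Trp53 itself, its regulators, and genes that the p53 protein is known to switch on. They were taken from a count table of 33677 gene symbols, in which each of the 32 symbols stood on 1 row. Their expression was measured by RNA sequencing of polyadenylated RNA in PyMT-A, a mouse mammary tumour cell line of FVB/NJ origin named after the polyoma middle T oncogene. The Jagged1 line carried the PMSCV-Jagged1 virus, a retrovirus that delivers the Notch ligand Jagged1, and the vector line carried the PMSCV-puro virus as its control. Each line gave 2 libraries, called Jagged1 1 and 2 and vector 1 and 2 after their titles, and both lines were cultured in DMEM with serum and antibiotics. The labels name neither the mouse's age nor the species of the Jagged1 cDNA, and they do not say whether a line was a clone or a pool. They also do not say whether the libraries of a line came from separate cultures, so the p-values reflect spread among these libraries alone, and that spread could be technical.

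p53 is a transcription factor that is kept scarce in unstressed cells because Mdm2, itself a p53 target, binds it and marks it for degradation. DNA damage, oncogene activity and other stresses stabilise the protein, so its activity is read from its target genes more than from its own mRNA. The targets halt the cell cycle (Cdkn1a, which encodes the CDK inhibitor p21), promote apoptosis (Bax, Bbc3, Pmaip1), repair DNA (Xpc, Ddb2, Polk) or feed back on p53 (Mdm2, Ccng1). In mammary tumours driven by polyoma middle T, the oncogene acts mainly through Src, PI3K and Ras signalling at the cell membrane.

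Total counts were 20835208 and 13549258 in Jagged1 1 and 2, and 15609720 and 12136227 in vector 1 and 2, and levels are given as TMM-scaled CPM, counts scaled to a common library size. Jag1, the mouse gene of the ligand delivered to the Jagged1 line, was checked first and stood at 275 and 324 CPM in the Jagged1 libraries, against 10.5 and 9.12 CPM in the vector libraries (log2 fold change 4.93 ± 0.20 SE, adjusted p = 0.0111, edgeR). Without vector 1 or vector 2 that adjusted p was 0.24 and 0.153. The epithelial markers Epcam, Krt8, Krt18 and Cdh1 were read at 557 to 1190 CPM in every library. Of 12 markers of other cell types, Adipoq was not analysed here. The other 11 summed to 10.4 and 19.3 CPM of raw counts in the Jagged1 libraries, against 5.57 and 12.4 CPM in the vector libraries. The T cell gene Cd3e was at 0 in all 4 libraries, and the leukocyte gene Ptprc had at most 1 count. Other markers of the list were read. Pdgfra had 166 and 93 counts in the Jagged1 libraries, against 51 and 61 in the vector libraries. Cdh5 had 10 and 84, against 6 and 32, Csf1r 32 and 23, against 10 and 16, and Dcn 6 and 23, against 0 and 0. Cd68 was lower in Jagged1 cells, at 3 and 22 counts, against 15 and 32.

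Of the 32 genes, 30 passed the filter on low counts and were tested. Gdf15, which encodes a secreted stress cytokine, was read 2 and 1 times in the Jagged1 libraries and 0 and 5 times in the vector libraries. Eda2r, which encodes a receptor of the TNF receptor family, was read 1 and 11 times in the Jagged1 libraries and 2 and 1 times in the vector libraries. The floor used for detection, 3 counts in a library, equalled 0.144 to 0.247 CPM across libraries and covers counting error only, so neither gene could be compared between the lines at this depth.

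Because p53 acts through short DNA elements, the promoter windows of the genes were searched for them. RefSeq's table (GRCm38.p6) held windows, 250 bases before to 50 after a transcription start, for 24 of the 32 genes; Tnfrsf10b, Perp, Pmaip1, Trp53inp1, Zmat3, Rrm2b, Ddb2 and Xpc had none there. The search was for the p53 decamer half-site consensus, which reads the same on both strands, without mismatch. At least 1 half-site lay in the windows of 10 of the 24 genes (41.7%), against 9.55% of all 27025 genes with a window. Cdkn1a, at the more upstream of its 2 annotated starts, was the 1 member with a pair of half-sites no more than 13 bases apart, an arrangement found in 0.074% of all genes. A match is a description of letters and not a measured binding site. Bases outside the windows were not searched, so a window without a half-site does not show that a gene lacks a p53 element. The windows of Cdkn1a and Ccng1 are shown because the one holds an exact pair of half-sites and the other is among the members with a pair at 1 mismatch, and that of Plk3 because it had the lowest p between the lines; capitals mark half-sites, and Plk3 has none.
Cdkn1a (chr17:29090729-29091028, plus strand): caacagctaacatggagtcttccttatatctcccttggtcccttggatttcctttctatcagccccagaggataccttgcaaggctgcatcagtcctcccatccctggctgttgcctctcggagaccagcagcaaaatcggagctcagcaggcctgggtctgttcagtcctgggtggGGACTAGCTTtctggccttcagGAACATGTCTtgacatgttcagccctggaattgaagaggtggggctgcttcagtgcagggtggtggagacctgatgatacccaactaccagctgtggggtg
Ccng1 (chr11:40755237-40755536, minus strand): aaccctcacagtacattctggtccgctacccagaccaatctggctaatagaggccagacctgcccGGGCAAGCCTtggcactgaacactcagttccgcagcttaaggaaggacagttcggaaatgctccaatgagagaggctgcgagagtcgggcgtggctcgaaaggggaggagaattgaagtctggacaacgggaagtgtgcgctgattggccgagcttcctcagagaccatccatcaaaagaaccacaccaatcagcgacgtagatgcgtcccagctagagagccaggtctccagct
Plk3 (chr4:117133914-117134213, minus strand): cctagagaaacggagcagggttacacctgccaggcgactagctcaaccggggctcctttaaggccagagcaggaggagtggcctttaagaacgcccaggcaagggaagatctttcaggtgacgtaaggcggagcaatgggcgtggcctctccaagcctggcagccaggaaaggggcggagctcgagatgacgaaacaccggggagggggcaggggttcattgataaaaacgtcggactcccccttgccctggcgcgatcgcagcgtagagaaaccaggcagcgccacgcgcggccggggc

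The Ccng1 half-site follows directly on a decamer with 1 mismatch to the consensus. In Cdkn1a the half-site nearer the start is itself followed directly by a decamer with 1 mismatch. The downstream window of Rps27l holds 2 half-sites, of which the one nearer the start is shown. The other members with a half-site are shown as 30-base stretches around it, again with the half-site in capitals, so that the elements can be compared.
Trp53 (chr11:69580274-69580303, plus strand): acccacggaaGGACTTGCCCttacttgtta
Mdm2 (chr10:117710925-117710954, minus strand): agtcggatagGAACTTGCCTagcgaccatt
Rps27l (chr9:66946296-66946325, plus strand): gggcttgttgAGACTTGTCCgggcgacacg
Sesn1 (chr10:41887256-41887285, plus strand): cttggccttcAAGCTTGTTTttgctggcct
Bax (chr7:45467080-45467109, minus strand): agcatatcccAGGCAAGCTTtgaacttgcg
Ei24 (chr9:36797325-36797354, minus strand): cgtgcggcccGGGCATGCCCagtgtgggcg
Aen (chr7:78895927-78895956, plus strand): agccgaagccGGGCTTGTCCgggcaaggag
Polk (chr13:96519399-96519428, minus strand): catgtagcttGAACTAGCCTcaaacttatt

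The mRNA of p53 itself differed little, though both libraries numbered 2 lay above both numbered 1, by 1.17-fold in Jagged1 and 1.10-fold in vector cells. Many of its targets separated the libraries by number more widely, and more than by line. Trp53 was at 170 and 200 CPM in Jagged1 1 and 2, against 190 and 208 CPM in vector 1 and 2. Its log2 fold change, Jagged1 over vector, was -0.11 ± 0.16 (adjusted p = 1.00, edgeR), and the lines overlapped. Mdm2, the ubiquitin ligase that degrades p53, was at 87.5 and 177 CPM in the Jagged1 libraries, against 112 and 211 CPM in the vector libraries. In each line the library numbered 2 thus held about as much more Mdm2 as in the other, 2.02-fold in Jagged1 and 1.88-fold in vector cells. Ccng1, encoding cyclin G1, a target that acts back on Mdm2 through the phosphatase PP2A, was at 158 and 383 CPM in the Jagged1 libraries, against 176 and 359 CPM in the vector libraries. Mdm4, the Mdm2 relative that blocks p53's activation domain, was at 134 and 225 CPM in Jagged1 cells, against 99.8 and 194 CPM in vector cells. Between the lines Mdm2, Ccng1 and Mdm4 stood at -0.29 ± 0.43, 0.02 ± 0.51 and 0.29 ± 0.39 on the log2 scale, each with an adjusted p of 1.00, so their differences by line were within the spread between libraries. Rps27l, a ribosomal protein paralogue that interacts with Mdm2, was at 106 and 134 CPM in Jagged1 cells, against 144 and 130 CPM in vector cells. Reads of Rps27l may be shared with the closely related Rps27 and its copies, so its level is uncertain.

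**Figure D1:**
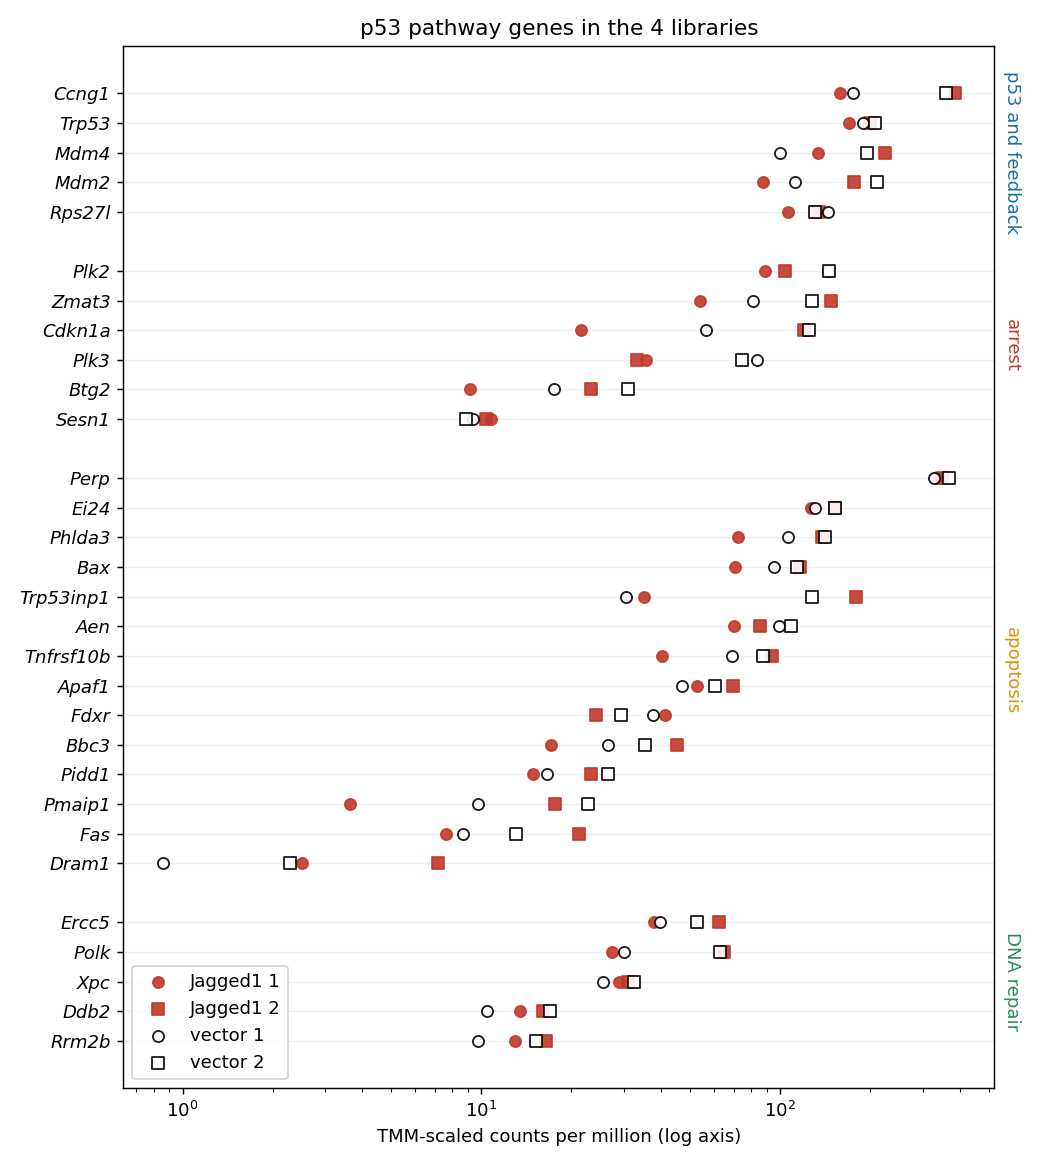
Level of each of the 30 tested genes in each library, in TMM-scaled CPM on a log axis, grouped by role; red symbols are Jagged1 and open symbols vector libraries, circles number 1 and squares number 2. In most rows the squares lie right of the circles whatever their colour, as for Ccng1 at 383 and 359 against 158 and 176 CPM, while Plk3 separates by colour.

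Among the genes of cell cycle arrest, Cdkn1a had the widest difference between numbers of all members in Jagged1 cells, and Plk3 the lowest p of all members between the lines. Cdkn1a was at 21.6 and 120 CPM in Jagged1 1 and 2, against 56.6 and 125 CPM in vector 1 and 2. Jagged1 1 stood lowest, and both libraries numbered 2 lay above both numbered 1, by 5.55-fold in Jagged1 and 2.20-fold in vector cells. Its log2 fold change by line, -0.36 ± 0.80, stood beside a difference of -1.39 within number 1 and -0.06 within number 2. Zmat3, which encodes an RNA-binding zinc finger protein, was at 53.8 and 147 CPM in Jagged1 cells, against 81.2 and 128 CPM in vector cells. Btg2, an antiproliferative gene, was at 9.15 and 23.3 CPM in Jagged1 cells, against 17.5 and 30.9 CPM in vector cells. Both were lowest in Jagged1 1 and overlapped between the lines, and the highest library was vector 2 for Btg2 and Jagged1 2 for Zmat3. Sesn1, the gene of a sestrin that restrains mTORC1, was low and even, at 10.7 and 10.3 CPM in Jagged1 cells, against 9.39 and 8.88 CPM in vector cells (log2 fold change 0.21 ± 0.23).

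Plk3 and Plk2, which encode Polo-like kinases of the stress response, had values that separated the lines without overlap, although neither passed the adjusted threshold. Plk3 was at 35.5 and 33.1 CPM in Jagged1 1 and 2, against 83.9 and 74.7 CPM in vector 1 and 2. The lines did not overlap, and the averages were 34.3 ± 1.68 CPM in Jagged1 and 79.3 ± 6.52 CPM in vector cells (SD, n = 2 each). The log2 fold change was -1.21 ± 0.16 (SE), -1.24 within number 1 and -1.17 within number 2. Over all genes this did not pass (unadjusted p = 0.000398, adjusted p = 0.67, edgeR), whereas DESeq2 gave an adjusted p of 0.000103. It was 1.99e-05 in edgeR without the low-count filter and 0.00577 without Jagged1 1, and over the alternatives it ran from 1.99e-05 to 1.00, so the call rests on the tool, the filter and the libraries used. Without Jagged1 1 that line is a single library, which the fit assumes to vary like the vector libraries. Plk2 was at 88.8 and 104 CPM in Jagged1 cells, against 144 and 145 CPM in vector cells. Its log2 fold change of -0.59 ± 0.16 had an unadjusted p of 0.0111 and an adjusted p of 0.976.

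Among the apoptosis genes the largest differences again lay between the numbers. Trp53inp1, a nuclear protein gene that promotes p53's apoptotic activity, was at 35.1 and 179 CPM in Jagged1 1 and 2, against 30.5 and 128 CPM in vector 1 and 2. The libraries numbered 2 exceeded those numbered 1 by 5.09-fold in Jagged1 and 4.20-fold in vector cells, and the lines stood at a log2 fold change of 0.43 ± 0.92. Pmaip1, which encodes the BH3-only protein Noxa, was at 3.63 and 17.7 CPM in Jagged1 cells, against 9.72 and 22.8 CPM in vector cells. The gene of the other BH3-only protein of the list, Bbc3 (Puma), was at 17.0 and 45.1 CPM in Jagged1 cells, against 26.4 and 35.3 CPM in vector cells. Both were lowest in Jagged1 1, and both were lower in Jagged1 than in vector cells within number 1 (-1.39 and -0.63 on the log2 scale). Within number 2 they stood at -0.36 and 0.35, so the sign for Bbc3 depended on the number.

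Bax, the pore-forming member of the BCL-2 family, spanned less, at 70.7 and 116 CPM in Jagged1 cells, against 95.7 and 114 CPM in vector cells. Of the death receptor genes, Fas was at 7.60 and 21.2 CPM in Jagged1 cells, against 8.66 and 13.03 CPM in vector cells. Tnfrsf10b, the mouse gene of the TRAIL receptor, was at 40.1 and 94.0 CPM in Jagged1 cells, against 68.8 and 87.8 CPM in vector cells. In both receptor genes the libraries numbered 2 were higher in each line, with a wider gap in Jagged1 than in vector cells. Phlda3, whose product restrains AKT, was at 72.0 and 138 CPM in Jagged1 cells, against 106 and 141 CPM in vector cells. Apaf1 (the apoptosome scaffold) and Pidd1 (the PIDDosome scaffold) had gaps between numbers of 0.40 and 0.64 in Jagged1 cells on the log2 scale, and of 0.37 and 0.68 in vector cells.

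Perp and Ei24, which encode membrane proteins, were among the steadiest of the group. Perp, also a component of desmosomes in epithelia, was at 340 and 348 CPM in Jagged1 cells, against 327 and 367 CPM in vector cells, and Ei24 stood at -0.02 ± 0.18 by line. Aen, a p53-induced nuclease, was at 69.9 and 85.5 CPM in Jagged1 cells, against 99.2 and 109 CPM in vector cells. Both Jagged1 libraries were below both vector libraries (log2 fold change -0.42 ± 0.17, unadjusted p = 0.0526, adjusted p = 1.00).

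Dram1 had the highest log2 fold change by line of the tested members, and Fdxr the largest fall from number 1 to number 2 in each line. Dram1, which encodes a lysosomal membrane protein linked to autophagy, was scarce, with 52 and 99 reads (2.52 and 7.15 CPM) in the Jagged1 libraries, against 13 and 28 reads (0.859 and 2.28 CPM) in the vector libraries. Neither Jagged1 library overlapped the vector libraries, and the gap between numbers was 1.46 in Jagged1 and 1.29 in vector cells on the log2 scale. The log2 fold change of 1.62 ± 0.72 did not pass (adjusted p = 1.00, edgeR). It was 2.21 without Jagged1 1, where the adjusted p was 0.0493 under the same assumption about a single library, 0.70 without Jagged1 2, 1.09 without vector 1 and 2.46 without vector 2. Fdxr, the mitochondrial ferredoxin reductase gene, was at 41.2 and 24.2 CPM in Jagged1 cells, against 37.5 and 29.3 CPM in vector cells. It was the 1 tested member with both libraries numbered 2 below both numbered 1.

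All 5 DNA repair genes were higher in the libraries numbered 2 than in those numbered 1, and their values by line lay near 0. Polk, the translesion polymerase kappa gene, was at 27.4 and 64.7 CPM in Jagged1 cells, against 29.9 and 62.6 CPM in vector cells. The lines were nearly superimposed (log2 fold change -0.01 ± 0.51) while the numbers differed by 2.36-fold in Jagged1 and 2.09-fold in vector cells. Ercc5, the gene of the excision repair nuclease XPG, was at 37.7 and 62.5 CPM in Jagged1 cells, against 39.7 and 52.8 CPM in vector cells. Rrm2b, a ribonucleotide reductase subunit that supplies nucleotides for repair, was at 12.9 and 16.4 CPM in Jagged1 cells, against 9.72 and 15.2 CPM in vector cells. The lesion recognition genes Ddb2 and Xpc stood at 0.10 ± 0.30 and 0.05 ± 0.19 by line on the log2 scale. Part of Ddb2's exons (23.8% of their length in GENCODE M21) overlaps Acp2 on the opposite strand, whose reads could not be told apart without a stated strand setting. Likewise 12.2% of the exon length of Bax overlaps Gm45808 on the same strand.

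Compared by line, the members did not move together. At an adjusted p under 0.05, 0 of 30 passed in edgeR, as did 0.00752% of all 13299 tested genes, namely Jag1 alone. DESeq2 called 1 member, Plk3, where it called 47 of all 13299 genes. Without the low-count filter edgeR also called Plk3 alone of the members, where it called 169 of 24653 genes. With limma-voom 0 members were called, and 1 of all 13299 genes. At an unadjusted p under 0.05 stood 2 members lower in Jagged1 cells (Plk2 and Plk3), where the share over all genes was 2.15%, and 0 higher, where it was 1.8%. The lines did not overlap, with Jagged1 lower, in 3 members (Plk2, Plk3 and Aen), against 15.1% of all genes, and with Jagged1 higher in 2 (Sesn1 and Dram1), against 13.9%. The median log2 fold change over the 30 was -0.02, with 12 higher and 18 lower, beside -0.0025 over all tested genes. It was -0.54 without Jagged1 2 and 0.17 without Jagged1 1, and -0.22 and 0.21 without vector 1 and vector 2. By role, 1 of the 6 arrest genes was higher and 5 lower, with a median of -0.47 (-0.81 within number 1, -0.23 within number 2). Higher and lower were 2 and 3 feedback genes, 5 and 9 apoptosis genes and 4 and 1 repair genes, with medians of -0.11, -0.02 and 0.10. Over all tested genes 6588 were higher and 6711 lower. In 14 of the 30 the sign of the difference between the lines was not the same within number 1 as within number 2, as in 5808 of the 13299 tested genes, a share close to that of the members.

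**Figure D2:**
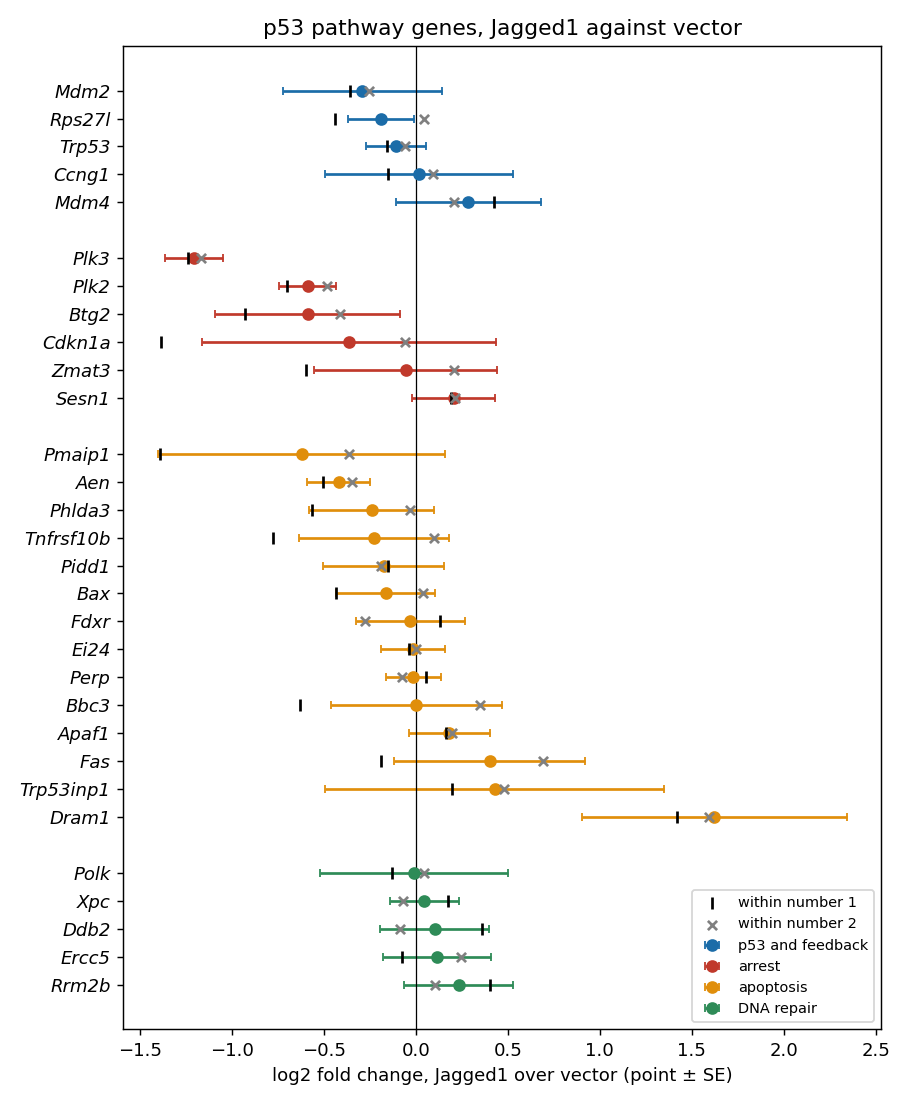
Log2 fold change of each tested gene, Jagged1 over vector, as a point with its SE, beside the difference of the single libraries within number 1 (bars) and number 2 (crosses). Plk3 at -1.21 and Plk2 at -0.59 have short error bars and like values within both numbers, while Cdkn1a spans -1.39 to -0.06 and most other error bars cross 0.

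Compared by number, 23 of the 30 had both libraries numbered 2 above both libraries numbered 1, against 25.8% of all tested genes, and 1 had both below, against 26% of all. By role these were 4 of 5 feedback genes, 3 of 6 arrest genes, 11 of 14 apoptosis genes and 5 of 5 repair genes. The median difference, number 2 minus number 1, was 0.72 in Jagged1 and 0.41 in vector cells on the log2 scale, beside medians over all genes of -0.0003 and 0.001. In 6 members the difference exceeded 2-fold in both lines, a count for which no share over all genes was computed. The signed difference, number 2 minus number 1, was higher in Jagged1 than in vector cells for 23 members (76.7%), against 47.6% of all genes. Jagged1 1 had the lowest value of the 4 libraries in 19 members (63.3%), against 25.3% of all genes. The count of members above was 7 of 10 with a half-site in a promoter window, 8 of 12 with a window and no half-site, and 8 of 8 with no window in the table.

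No test was made between the numbers, since they are replicate numbers and not a condition. The libraries' descriptions also carry a running number, which places both libraries numbered 1 before both numbered 2. Within each number, it places vector before Jagged1. The labels do not say what this running order marks, and its part in the result was not tested. Other measures moved with the replicate numbers. Mitochondrial transcripts took 2.11% and 2.12% of counts in the libraries numbered 2 of Jagged1 and vector cells, against 1.81% and 1.42% in those numbered 1. The 18S ribosomal RNA row took 0.081% and 0.0735% in number 2, against 0.177% and 0.982% in number 1, and the totals were smaller in number 2 in each line, as given above. The summed markers of other cell types were also higher in number 2 in each line, at 12.4 to 19.3 CPM of raw counts. Their part in the result was not tested. In bulk RNA, a smaller share of cells expressing a gene cannot be told apart from less of its RNA per cell.

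**Figure D3:**
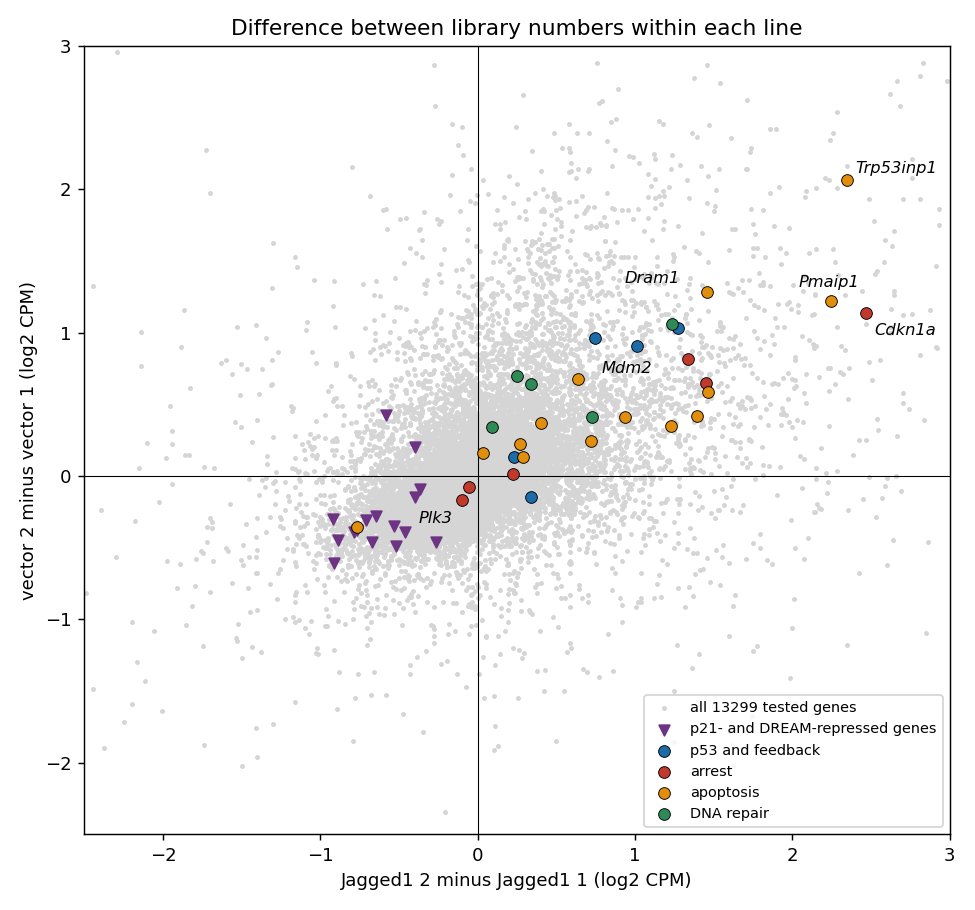
Difference between library numbers on the log2 CPM scale, Jagged1 2 minus Jagged1 1 on the horizontal axis and vector 2 minus vector 1 on the vertical axis, for all tested genes (grey; 93 lie outside the axes), the p53 pathway genes by role and genes repressed through p21 and DREAM (triangles). Most p53 pathway genes lie in the upper right, up to 2.47 for Cdkn1a, and 14 of the 16 repressed genes in the lower left.

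Genes on either side of the pathway were examined for the same pattern. Of 16 cell cycle genes that p53 is known to repress through p21 and the DREAM complex, 14 had both libraries numbered 2 below both numbered 1, against 26% of all genes, and 0 had both above. Their summed level was 2428 and 2653 CPM of raw counts in number 2 of Jagged1 and vector cells, against 3696 and 3065 CPM in number 1. By line 9 were higher and 7 lower, with a median log2 fold change of 0.005, and 0 passed the threshold in edgeR (0 also at an unadjusted p under 0.05). Among the lowest unadjusted p-values by line were those of the proliferation marker gene Mki67 (0.34 ± 0.20) and the spindle checkpoint kinase gene Bub1 (0.22 ± 0.26), both with an adjusted p of 1.00. Mki67 and Bub1 were the pair in which vector 2 was above vector 1.

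Of 24 other p53 targets, all tested, 13 had both libraries numbered 2 above, against 25.8% of all genes, and 5 had both below, against 26%. The medians of number 2 minus number 1 were 0.40 in Jagged1 and 0.21 in vector cells. By line 10 were higher and 14 lower, and 0 passed in edgeR. At an unadjusted p under 0.05 stood 2 lower, where the share over all genes was 2.15%, and 0 higher, where it was 1.8%. The lowest p-values belonged to the receptor tyrosine kinase gene Epha2 (-0.60 ± 0.14, adjusted p = 0.914), the cytokine gene Lif (-0.56 ± 0.15, adjusted p = 0.976) and Pml, of the nuclear bodies (-0.40 ± 0.17, adjusted p = 1.00). In each of these the lines did not overlap. Both Jagged1 libraries were below both vector libraries in 5 of the 24, against 15.1% of all genes. In 0 of the 24 were both above, against 13.9%. Epha2 was at 186 and 186 CPM in Jagged1 cells, against 277 and 288.5 CPM in vector cells. Lif was at 207 and 216 CPM in Jagged1 cells, against 322 and 302 CPM in vector cells. Pml was at 133 and 155 CPM in Jagged1 cells, against 178 and 201 CPM in vector cells.

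Of 17 regulators upstream of p53, 16 were tested (Cop1 stood in the table as Rfwd2) and Trp73, a p53 relative, was at 0 in all 4 libraries. By number 6 of the 16 had both libraries numbered 2 above, against 25.8% of all genes, and 3 had both below, against 26%, with medians of -0.04 in Jagged1 and 0.03 in vector cells. By line 9 were higher and 7 lower, and 0 passed in edgeR (0 also at an unadjusted p under 0.05). Cdkn2a, the locus of the Mdm2 inhibitor ARF and of p16, was at 107 and 64.6 CPM in Jagged1 1 and 2, against 77.5 and 56.3 CPM in vector 1 and 2 (0.36 ± 0.30, adjusted p = 1.00). Its level ran opposite to the targets, higher in number 1 than in number 2 in each line. The checkpoint kinase gene Chek2 stood at 0.22 ± 0.18 and the p53 relative Trp63 at 0.99 ± 0.51, both with an adjusted p of 1.00. Trp63 was at 7.21 and 19.7 CPM in Jagged1 1 and 2, against 5.88 and 7.57 CPM in vector 1 and 2. Its lines overlapped, with Jagged1 2 apart from the other libraries.

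Relative to transcript length, levels differed widely among the members. Divided by the merged exon length of GENCODE M21 and averaged over the 4 libraries, the level was 177 CPM per kilobase for Perp, 158 for Rps27l, 76.6 for Ccng1, 73.4 for Phlda3, 62.9 for Bax and 47.5 for Trp53. The lowest per-length levels of the tested members were those of Dram1 (1.05), Rrm2b (1.49) and Sesn1 (2.47). Across 11449 tested genes with a length, the difference between numbers and the merged exon length had a Spearman correlation of 0.10, given as a description of genes that share the same libraries.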

How the data were processed

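The authors deposited 1 table of raw counts, per the file headers, with gene symbols as rows and the libraries as columns; the values are whole numbers with differing totals. The submitters' processing notes name STAR 2.6.0c, featureCounts 1.6.2 and the mm10 (GRCm38) genome. Neither an annotation release nor a strand setting is given in the sources used here. Columns were matched to samples by their descriptions and grouped and numbered by their titles.

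Genes were filtered with filterByExpr (minimum count 10), which left 13299 of 33677, scaled with TMM and tested with edgeR 4.0.16's quasi-likelihood F test (R 4.3.3), with Benjamini-Hochberg adjustment over all tested genes and a threshold of 0.05. SE is the absolute log2 fold change over the square root of F. Differences of single libraries are in log2 CPM (prior count 2). A two-sided exact permutation test of 2 libraries against 2 cannot go below p = 0.333 and was not run. Replicates differed beyond sampling noise (chi-square per degree of freedom 55.9 for Jagged1 and 35.6 for vector) and were kept apart.

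The 32 members, the other lists and the rule for named genes (all members, and the 3 lowest unadjusted p-values of each other list) were chosen with earlier results of these data known; 1 gene that the rule names is not reported here. Alternatives used DESeq2 1.42.0, limma 3.58.1 (voom), other scalings and filters, a replicate block, and each library left out.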

Additional observations from a re-analysis of the deposited data

How the results depend on the processing

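The edgeR count of 1 gene called was unchanged in number with DESeq2 size factors, limma-voom or a minimum mean of 5 CPM. It was 47 with DESeq2 and 169 without the low-count filter, and 0 to 193 with 1 library left out (193 without Jagged1 1, 49 without Jagged1 2 and 0 without vector 1 or vector 2). Of the members, 1 was called (Plk3, lower) with DESeq2 and 1 (Plk3) without the filter, and 0 to 2 with 1 library left out, the 2 being Plk3 and Dram1 without Jagged1 1. The median of the members lay between -0.54 and 0.21 with 1 library left out. With the replicate number as a replicate block, 17 genes and 1 member (Plk3, -1.21, adjusted p = 0.0353) were called; the deviations of same-numbered libraries correlated at 0.43 across genes, but 2 pairs do not show that numbers mark shared handling. No scaling or tool moved the median over all genes by more than 0.1 on the log2 scale. The cause of these shifts was not tested.

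Signs by line turned for 23 members with 1 library left out. Their log2 fold changes ran from -0.22 to 0.0043 for Trp53, -0.88 to 0.23 for Mdm2, -0.13 to 0.84 for Mdm4, -0.75 to 0.61 for Ccng1, -2.06 to 0.41 for Cdkn1a, -0.95 to 0.50 for Zmat3, -0.85 to 0.55 for Bbc3, -0.56 to 0.16 for Bax, -2.15 to 0.13 for Pmaip1, -0.028 to 0.37 for Apaf1, -0.51 to 0.97 for Fas and -0.96 to 0.27 for Tnfrsf10b. They ran from -0.070 to 0.063 for Perp, -0.15 to 0.11 for Ei24, -0.52 to 0.19 for Pidd1, -0.78 to 0.16 for Phlda3, -1.17 to 1.79 for Trp53inp1, -0.47 to 0.30 for Fdxr, -0.75 to 0.61 for Polk, -0.29 to 0.44 for Ercc5, -0.036 to 0.58 for Rrm2b, -0.19 to 0.49 for Ddb2 and -0.094 to 0.22 for Xpc. Values near 0 also turned to -0.028 (limma-voom) and -0.028 (block) for Ccng1, to -0.18 (limma-voom), -0.013 (no filter) and -0.13 (block) for Bbc3, and, at a minimum mean of 5 CPM, to 0.0054 for Perp, 0.0034 for Ei24 and 0.013 for Polk.

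Depth limits the scarce genes, and Gdf15 and Eda2r were near the floor of 3 counts in most libraries, while Dram1 rested on 13 to 99 reads a library.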

Other observations

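Genes that hold apoptosis back were read beside the p53 targets that promote it. Of 8 such genes of the BCL-2 and IAP families 7 were tested, Bcl2a1a having at most 2 counts in a library, and 0 passed by line in edgeR, also at an unadjusted p under 0.05 (5 higher and 2 lower in Jagged1 cells, median log2 fold change 0.10). Bcl2, which guards the mitochondrial membrane, was at 50.2 and 47.6 CPM in Jagged1 1 and 2, against 36.8 and 43.9 CPM in vector 1 and 2 (0.28 ± 0.17, adjusted p = 1.00, edgeR). Xiap, a caspase inhibitor gene, was at 121 and 128 CPM in Jagged1 cells, against 67.3 and 122 CPM in vector cells, with vector 1 apart from the other libraries. Birc2 was at 28.4 and 37.9 CPM in Jagged1 cells, against 25.3 and 33.0 CPM in vector cells. Both libraries numbered 2 lay above both numbered 1 in 5 of the 7 tested genes, against 25.8% of all tested genes.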
